A study of Mus musculus with 16 samples.

Results

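The Foxn3-only regions are stretches of the mouse genome that carried a CUT&RUN peak of the forkhead transcription factor Foxn3 in embryonic retina and no peak of its relative Foxn4 or of the winged-helix factor Rfx3. All peaks of the 3 deposited lists that overlapped by at least 1 bp were merged into 6155 regions, and 292 of them held a Foxn3 peak alone. These 292 were 10.6% of the 2764 regions with a Foxn3 peak, and each was made of 1 of the 2794 peaks in the Foxn3 list. The members were selected on the measured peak calls themselves, so the absence of the other factors and the peak scores are given only as descriptions. CUT&RUN uses an antibody to bring micrococcal nuclease to a protein in cells, and the DNA cut free around it is sequenced.

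The tissue was retina of CD-1 mice, an outbred strain, at embryonic day 16, pooled and dissociated, with 300000 cells in each assay. No genetic change or drug distinguished the groups, which differed in antibody: 4 libraries for Foxn3 in separate runs of the assay, 2 for Foxn4 and 2 for Rfx3, beside 8 immunoglobulin G control libraries. The controls were rabbit immunoglobulin for Foxn3 (4 libraries) and Rfx3 (2 libraries) and mouse immunoglobulin for Foxn4 (2 libraries). Nuclease digestion lasted 1 h, but about 12 h for Foxn4 and its control, so antibody, control species and digestion time cannot be told apart in any comparison with Foxn4. Each factor has 1 list with 1 score per peak. Which libraries entered a list is not stated, so no value below has a spread between replicates, p-values describe these lists only, and neither the control libraries nor the retinal identity of the cells could be examined here.

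Foxn3 and Foxn4 belong to the forkhead family, whose DNA-binding domain is a winged helix. Foxn3 is known mainly as a repressor, and Foxn4 promotes the formation of amacrine and horizontal cells in the retina. Rfx3 binds X-box sequences and is a regulator of ciliary genes, and forkhead proteins of the Foxn group can recognise an alternative core, GACGC, besides the canonical forkhead sequence TAAACA.

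Sequence was available for the 156 Foxn3-only regions (53.4%) that overlapped a promoter window, from 250 bases before to 50 bases after an annotated transcription start (RefSeq, GRCm38.p6, the assembly also called mm10). Sequences of 6 bases (hexamers) found in at least 20 of these windows were ranked by their share relative to all promoter windows. The palindrome CACGTG ranked first. It is an E-box, the core of sites bound by basic helix-loop-helix leucine zipper proteins such as Usf1, Max and the Mitf/Tfe family. An extended form, TCACGTGA, was present in 25 windows. The 12 examples here show how the extended palindrome, in capitals, sits in otherwise dissimilar flanks. Each is a stretch of 30 bases, written 5′ to 3′ on the strand of the gene, and all 12 palindromes lay inside the Foxn3 peak. They were chosen after the values were seen.
Osgep: gattggtgtggTCACGTGAttcgagggctc
Ube2b: aggctaggccaTCACGTGAcctgctctgat
Zfyve26: atcaggtggcaTCACGTGAttcaaacaaac
Mcoln1: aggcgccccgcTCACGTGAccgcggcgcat
Marchf8: tgaccggcgcgTCACGTGAccggtcagtcg
Bax: agcgatgatgaTCACGTGActagtcctgcg
Ctsd: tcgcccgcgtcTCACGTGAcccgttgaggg
Dvl2: caaggcagtggTCACGTGAgtgtctaggtg
Atg3: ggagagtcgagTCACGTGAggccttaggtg
Atp6v1a: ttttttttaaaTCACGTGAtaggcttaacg
Cd164: cgccgggctgcTCACGTGAccggcgcgcgc
Eif4g1: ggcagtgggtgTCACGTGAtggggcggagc

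The stretch of Mcoln1 is at chr8:3500462-3500491, plus strand, that of Ctsd at chr7:142387908-142387937, minus strand, and that of Atp6v1a at chr16:44139373-44139402, minus strand. Mcoln1 encodes a lysosomal cation channel, Ctsd the lysosomal protease cathepsin D, and Atp6v1a a subunit of the proton pump that acidifies lysosomes. They were picked after the values were seen. Windows with the extended form also included those of Tnpo2, Bax, Dvl2, Sgo1 and Usp31. Lysosomal genes were not counted, so no theme is drawn.

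Whole upstream stretches of 250 bases follow for 6 genes, ending at the base before the start site. The capitals mark CACGTG and CCAAT (or its reverse complement, ATTGG), the box bound by the trimeric factor NF-Y. Ap5z1, Osgep and Ube2b were the highest-scoring windows with an E-box, Klf6 has both elements, and Top2a and Pcna have CCAAT boxes and no CACGTG.
Ap5z1: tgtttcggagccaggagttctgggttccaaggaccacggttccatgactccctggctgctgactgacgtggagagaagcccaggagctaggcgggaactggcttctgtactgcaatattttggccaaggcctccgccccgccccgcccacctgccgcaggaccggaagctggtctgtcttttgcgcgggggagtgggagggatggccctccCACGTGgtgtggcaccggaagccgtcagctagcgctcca
Osgep: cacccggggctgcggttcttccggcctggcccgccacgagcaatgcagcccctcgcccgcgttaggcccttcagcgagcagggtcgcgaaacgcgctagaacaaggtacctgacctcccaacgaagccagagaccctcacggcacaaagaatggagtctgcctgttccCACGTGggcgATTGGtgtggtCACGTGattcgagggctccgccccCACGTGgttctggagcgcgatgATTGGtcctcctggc
Ube2b: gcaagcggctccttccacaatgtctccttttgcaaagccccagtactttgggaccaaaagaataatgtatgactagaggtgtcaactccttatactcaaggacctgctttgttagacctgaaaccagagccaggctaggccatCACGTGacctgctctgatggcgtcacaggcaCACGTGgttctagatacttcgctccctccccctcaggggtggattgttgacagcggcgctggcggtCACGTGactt
Klf6: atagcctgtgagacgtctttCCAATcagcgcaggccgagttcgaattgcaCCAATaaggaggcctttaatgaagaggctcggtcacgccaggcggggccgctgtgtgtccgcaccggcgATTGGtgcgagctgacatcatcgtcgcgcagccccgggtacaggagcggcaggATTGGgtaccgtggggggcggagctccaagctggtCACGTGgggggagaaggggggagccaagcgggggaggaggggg
Top2a: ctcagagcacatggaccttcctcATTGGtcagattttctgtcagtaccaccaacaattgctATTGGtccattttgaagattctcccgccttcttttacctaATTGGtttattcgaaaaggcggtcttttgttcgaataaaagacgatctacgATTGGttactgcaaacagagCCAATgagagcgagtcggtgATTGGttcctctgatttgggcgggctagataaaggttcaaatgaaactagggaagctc
Pcna: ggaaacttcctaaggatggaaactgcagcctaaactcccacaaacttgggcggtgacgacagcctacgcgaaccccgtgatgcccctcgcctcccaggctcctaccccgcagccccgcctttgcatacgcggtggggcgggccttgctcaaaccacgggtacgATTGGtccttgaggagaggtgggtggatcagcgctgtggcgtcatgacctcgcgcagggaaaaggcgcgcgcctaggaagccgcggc

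The stretch of Ap5z1 is at chr5:142463681-142463930, plus strand, that of Osgep at chr14:50924894-50925143, minus strand, and that of Ube2b at chr11:52000787-52001036, minus strand. The stretch of Klf6 is at chr13:5861239-5861488, plus strand, that of Top2a at chr11:99024190-99024439, minus strand, and that of Pcna at chr2:132253181-132253430, minus strand. Top2a, which encodes DNA topoisomerase II alpha of dividing cells, held 6 CCAAT boxes in the printed stretch, and Klf6, a zinc finger transcription factor, held 4 with 1 E-box. Pcna, the sliding clamp of DNA replication, held 1 CCAAT box.

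Foxn3-only regions had mostly low to middling Foxn3 scores. The score is the authors' value for each peak, in a unit that is not stated, and it was used only to rank peaks within the Foxn3 list. Across the 292 regions it ran from 6.54 to 109, with a median of 21.5 and quartiles of 15.9 and 29.0. Of these regions, 224 (76.7%) lay below the median of the list. The highest, at Prdm10, was at percentile 87.9. From the lowest to the highest quartile of the list, 122, 102, 52 and 16 regions were Foxn3-only, or 16.5%, 15.9%, 7.55% and 2.31% of the Foxn3 regions in the quartile. The median Foxn3 score was lower in regions shared with Foxn4 alone, at 14.0, and higher in regions shared with Rfx3 alone, at 43.0, or with both, at 26.2. The regions were 119 to 832 bp wide, with a median of 343 bp.

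**Figure D1:**
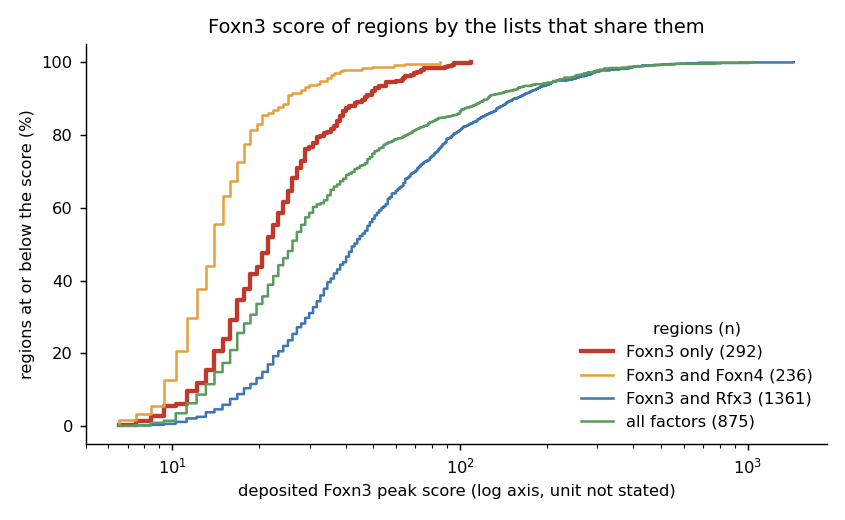
Cumulative share of regions (y axis, percent) at or below a deposited Foxn3 peak score (x axis, log scale, unit not stated), for the 4 classes of regions with a Foxn3 peak. The Foxn3-only curve (292 regions, median 21.5) lies between that of regions shared with Foxn4 (median 14.0) and that of regions with all factors (median 26.2), and it ends at 109.

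Most Foxn3-only regions were far from any peak of the other lists. The median distance was 210 kb to the nearest Foxn4 peak and 127 kb to the nearest Rfx3 peak, and 247 regions (84.6%) lay over 10 kb from both. A peak of another list was within 100 bp of 4 regions, within 500 bp of 10 and within 1000 bp of 15. The 3 members nearest to another list's peak each had an Rfx3 peak close by. The first lay at the start of the ciliary gene Ccdc40, with its midpoint 54 bp from an annotated start (chr11:119228435-119228818, score 11.2, 47 bp from the Rfx3 peak), and an end of Tbc1d16 was also within 1 kb. The second lay inside Cfap221, a gene of motile cilia, and overlapped its promoter window (chr1:119997396-119997929, score 11.2, 62 bp from the Rfx3 peak). The third lay inside Cep95 and within 1 kb of an end of Ddx5, an RNA helicase gene (chr11:106789520-106790003, score 21.5, 87 bp from the Rfx3 peak). On the other side of the rule, the shortest overlaps were 95 bp with Rfx3 inside Dhx40 (chr11:86807033-86807127, score 29.9), 113 bp with Rfx3 at Ppat and Paics (chr5:76951496-76951804, score 20.6) and 127 bp with Foxn4 inside Gpc5 (chr14:116184266-116184585, score 17.8). The Dhx40 peak lay wholly inside its Rfx3 peak, and the Foxn4 peak at Gpc5 (chr14:116184459-116184586) almost wholly inside the Foxn3 peak. The overlaps at Dhx40 and Gpc5 were thus limited by the width of the narrower peak. At Ppat and Paics the Rfx3 peak (chr5:76950990-76951608) and the Foxn3 peak overlapped only at their edges. Of the shared Foxn3 peaks, 0 had a longest overlap under 50 bp.

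Among the 10 highest scores, most regions lay at gene ends. The highest, 109, was inside Prdm10, a zinc finger gene, with its midpoint 15 bp from an annotated Prdm10 start (chr9:31280172-31280896). Ap5z1, a subunit of the AP-5 adaptor of late endosomes, followed with 95.3 (chr5:142463686-142464101). The third region, with a score of 93.4, lay between Osgep, a tRNA-modifying enzyme, and Apex1, the endonuclease of base excision repair (chr14:50924688-50925162). The region at Ube2b, a ubiquitin-conjugating enzyme of postreplication repair, and Cdkl3 had 90.6 (chr11:52000626-52000969).

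Rheb, the GTPase that activates mTORC1, had a region with a score of 88.8, and its midpoint was 449 bp upstream of the start (chr5:24842584-24843037). Ciart, a repressor in the circadian clock, had 74.8 (chr3:95882204-95882516). Lamtor4, a subunit of the Ragulator complex that anchors mTORC1 on lysosomes, had 72.9, and that region began downstream of the start (chr5:138255521-138255808). An equal score was found inside Atf7ip, a partner of the histone methyltransferase Setdb1 (chr6:136553804-136554034). The region of Nme5, a gene of motile cilia, and Brd8dc on chromosome 18 had 71.0, and that of Rad9a, a subunit of the DNA damage checkpoint clamp, had 69.2 (chr19:4201435-4201870).

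The widest members were at Hif1a, the oxygen-sensing transcription factor, at 832 bp with a score of 31.8 (chr12:73907516-73908347), at Impact on chromosome 18 at 800 bp with 20.6, and at Tef, a circadian leucine zipper factor, at 798 bp with 38.3 (chr15:81810730-81811527). All 3 lay inside the gene and over 1 kb from its outer ends, but the Hif1a and Tef regions overlapped the promoter window of an internal annotated start. Windows on chromosome 18 were not used, so this was not examined for Impact.

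Foxn3-only regions lay mostly at the ends of genes, as did regions with Foxn3 and Rfx3 and regions with all factors. The midpoint of 178 of the 292 (61.0%, 95% Wilson interval 55.3% to 66.4%) lay within 1 kb of an annotated end of a protein-coding gene, against 38.2% of all 6155 regions. A further 74 (25.3%) lay inside a gene farther from its ends, and 40 (13.7%, 10.2% to 18.1%) lay between genes, against 30.5% of all regions. All regions include 1654 with Foxn4 alone, of which 11.1% were at gene ends, and 1559 with Rfx3 alone (32.5%). The intervals cover counting error only. Median scores were much the same in these places, at 21.5 at gene ends, 21.5 inside genes and 19.6 between genes. Of 176 gene-end members on chromosomes with promoter windows, 152 had an annotated start within 1 kb and 135 overlapped a window. A further 21 members overlapped a window without being at an outer gene end. Over the 156 windows, the midpoint of the region lay at a median of −81.5 bp relative to the start, where negative values are upstream, and 135 midpoints were upstream.

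In position, Foxn3-only regions differed from regions shared with Foxn4 and not detectably from those shared with Rfx3. Gene ends held 61.0% of Foxn3-only regions and 23.3% of the 236 regions with Foxn3 and Foxn4 (odds ratio 5.14, 95% interval 3.51 to 7.53, Fisher's exact test, two-sided, adjusted p = 6.35e-18 over 3 comparisons). Against the 1361 regions with Foxn3 and Rfx3, of which 58.6% were at gene ends, the odds ratio was 1.10 (0.853 to 1.43, Fisher's exact test, adjusted p = 0.707). Against the 875 regions with all factors, of which 60.6% were at gene ends, it was 1.02 (0.775 to 1.33, Fisher's exact test, adjusted p = 0.945). For places between genes, the odds ratio was 0.198 against Foxn3 with Foxn4 (0.130 to 0.302, Fisher's exact test, adjusted p = 8.55e-15), 0.823 against Foxn3 with Rfx3 (0.572 to 1.18, adjusted p = 0.330) and 0.755 against all factors (0.518 to 1.10, adjusted p = 0.257). Foxn3-only regions and regions with Foxn3 and Foxn4 were split by a Foxn4 peak. Of regions with Foxn4 alone, 11.1% were at gene ends and 50.7% between genes. A difference in position from regions shared with Foxn4 is therefore not independent of the rule. The difference from regions shared with Foxn4 did not pass among Foxn3 peaks at or above the median score. That comparison rests on 70 Foxn3-only regions and 16 with Foxn3 and Foxn4. Gene ends held 42 of the 70 and 10 of the 16 (odds ratio 0.90, 0.294 to 2.76, Fisher's exact test, adjusted p = 1.00), and 9 and 3 lay between genes (odds ratio 0.639, 0.152 to 2.69, Fisher's exact test, adjusted p = 0.845).

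**Figure D2:**
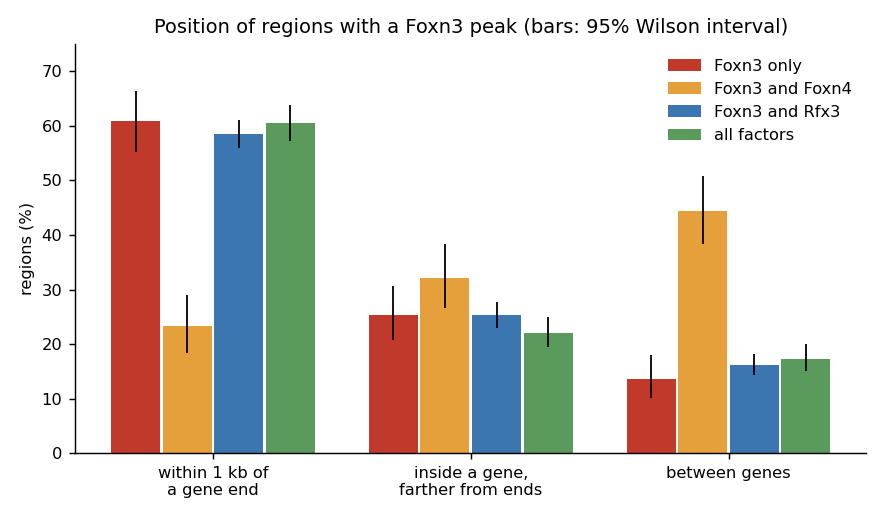
Share of regions (y axis, percent) within 1 kb of a gene end, inside a gene farther from its ends, and between genes, for the 4 classes of regions with a Foxn3 peak; error bars are 95% Wilson intervals. Foxn3-only regions stood at 61.0% at gene ends and 13.7% between genes, and regions shared with Foxn4 at 23.3% and 44.5%.

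The members were spread over the chromosomes, from 4 on chromosome X to 29 on chromosome 11. They made up 6.85% of the Foxn3 regions on chromosome 1, the lowest share, and 18.7% on chromosome 13, the highest. No Foxn3-only region lay in or within 1 kb of the Foxn3, Foxn4 or Rfx3 genes.

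In the promoter windows, 10 motifs named for transcription factor families were searched on both strands and compared with the windows of the other Foxn3 classes in 30 tests, and 2 passed an adjusted p of 0.05. The Rfx core sequence GTTGCC was rarer than in regions shared with Rfx3 and not Foxn4. It was present in 21 of 156 Foxn3-only windows (13.5%), against 12.5% of all 32851 promoter windows, and in 277 of 748 windows of regions with Foxn3 and Rfx3 (37%). The odds ratio was 0.265 (0.163 to 0.429, Fisher's exact test, two-sided, adjusted p = 6.46e-08 over 30 tests). The compared classes were split by an Rfx3 peak, and windows of regions with Rfx3 alone had GTTGCC in 29.1%. A difference in an Rfx sequence is therefore not independent of the rule. Against regions with all factors, which also have an Rfx3 peak, the difference did not pass: the share there was 17.0% and the odds ratio 0.760 (0.455 to 1.27, Fisher's exact test, adjusted p = 0.830). Windows with Foxn3 and Foxn4 had it in 14.3%. Among Foxn3 peaks at or above the median score, which left 40 Foxn3-only windows and 532 with Foxn3 and Rfx3, the shares were 22.5% and 41.9%, and the odds ratio of 0.402 did not pass Fisher's exact test (adjusted p = 0.385).

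The CCAAT box was present in 99 of 156 Foxn3-only windows (63.5%), against 37.4% of all windows. It was rarer than in the 49 windows of regions with Foxn3 and Foxn4, of which 43 (87.8%) held it (odds ratio 0.242, 0.0971 to 0.605, Fisher's exact test, adjusted p = 0.0184). With Foxn3 and Rfx3 the share was 52.0%, and the odds ratio of 1.60 did not pass Fisher's exact test (adjusted p = 0.103). Among peaks at or above the median score, 21 of 40 Foxn3-only windows and 8 of 9 with Foxn3 and Foxn4 held it, and the odds ratio of 0.138 did not pass Fisher's exact test (adjusted p = 0.583).

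No test of a forkhead sequence against the other Foxn3 classes passed. The alternative forkhead core GACGC was in 87 of 156 windows (55.8%), against 27.2% of all windows and 40.8% to 55.9% in the other Foxn3 classes, with an odds ratio of 0.995 against Foxn3 with Rfx3 (0.703 to 1.41) and 1.83 against Foxn3 with Foxn4 (0.953 to 3.51, Fisher's exact test, adjusted p = 0.441). The canonical TAAACA was in 13 (8.33%), against 13.4% of all windows. The Sp-family sequence GGGCGG was in 71.2% of Foxn3-only windows and 35.7% of all windows. Base composition also differed. The median G+C content was 62.0% in Foxn3-only windows and 52.7% in all windows, and the observed over expected CpG ratio was 0.801 and 0.384. In the other Foxn3 classes G+C ran from 58.3% to 61.7% and the ratio from 0.792 to 0.843. The part of base composition in the shares was not tested.

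**Figure D3:**
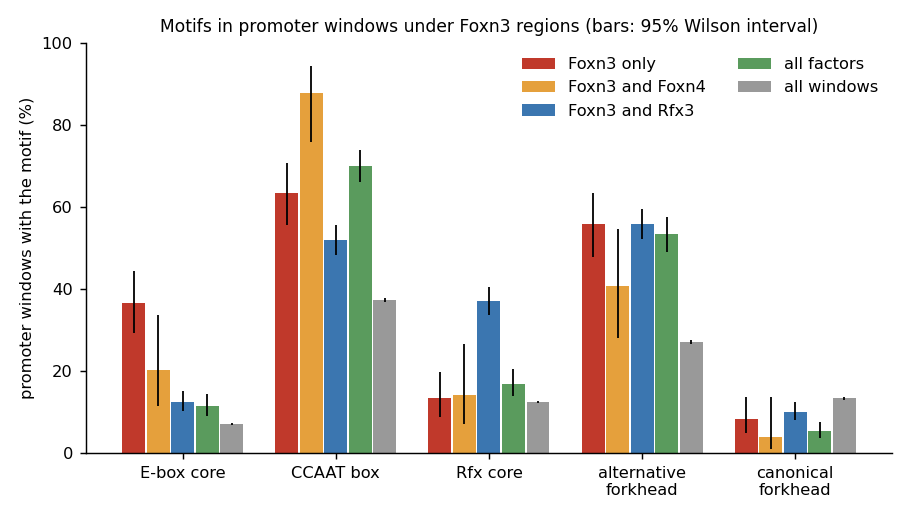
Share of promoter windows (y axis, percent) holding the E-box core CACGTG, the CCAAT box, the Rfx core GTTGCC, the alternative forkhead core GACGC or the canonical forkhead sequence TAAACA, for the windows under the 4 classes of Foxn3 regions and all windows (grey); error bars are 95% Wilson intervals. The E-box core stands at 36.5% under Foxn3-only regions and between 11.5% and 20.4% under the other classes. GTTGCC stands at 37% under regions shared with Rfx3 and not Foxn4, and at 17.0% under regions with all factors.

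The E-box was found by ranking hexamers after the windows were assembled, so its shares are a description with no test. CACGTG was present in 57 of 156 Foxn3-only windows (36.5%, Wilson interval 29.4% to 44.3%), against 7.15% of all promoter windows. The share moved with the score limits, to 65.0% with only Foxn3 peaks at or above the median score and to 20.8% where a region was kept unless its Foxn4 or Rfx3 peak was at or above that list's median, limits chosen after seeing the data. CACGTG was in 94 of 748 windows of regions with Foxn3 and Rfx3 (12.6%, 10.4% to 15.1%), in 60 of 524 with all factors (11.5%, 9.0% to 14.5%) and in 10 of 49 with Foxn3 and Foxn4 (20.4%, 11.5% to 33.6%). Regions with an Rfx3 peak alone had it in 5.47% of their windows, and regions with a Foxn4 peak alone in 8.45%. The extended palindrome TCACGTGA was in 25 windows (16%, 11.1% to 22.6%), against 0.974% of all windows, 2.54% with Foxn3 and Rfx3, 2.67% with all factors and 6.12% with Foxn3 and Foxn4. Among the 786 hexamers found in at least 20 Foxn3-only windows, CACGTG ranked first by its ratio to all windows, 5.11, and also by its ratio to the 1321 windows of other Foxn3 regions, 2.94.

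Windows with higher Foxn3 scores held the E-box more often. From the lowest to the highest quartile of the Foxn3 list the share in Foxn3-only windows was 13 of 62 (21.0%), 19 of 56 (33.9%), 16 of 26 (61.5%) and 9 of 12 (75%). In windows with Foxn3 and Rfx3 it was 5.0%, 7.87%, 16.3% and 14.3% over the same quartiles, and with all factors it was 5.0%, 9.52%, 12.2% and 20.5%. The 49 windows with Foxn3 and Foxn4 are too few for a trend, with 4 of 30, 1 of 11, 5 of 7 and 0 of 1. The median score was 28.0 in Foxn3-only windows with the E-box and 19.6 in those without. The E-box was in 14 of the 20 highest-scoring windows and in 3 of the 20 lowest. All these shares count sites anywhere in the window. The windows of Rheb and Lamtor4, counted in the highest quartile and among the 14, had their sites outside the Foxn3 peak. So did those of Ubap2 in the second quartile and C030016D13Rik in the lowest. Shares by quartile for sites inside the peak were not computed.

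**Figure D4:**
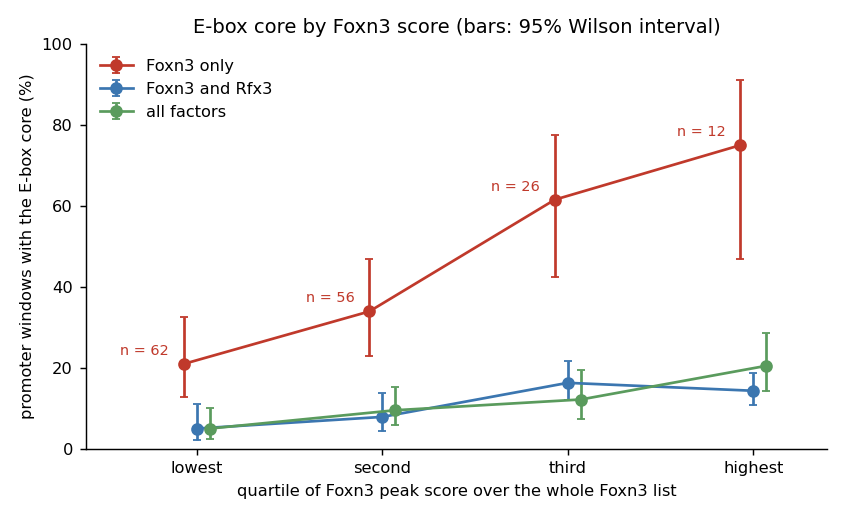
Share of promoter windows with CACGTG (y axis, percent) by quartile of Foxn3 peak score (x axis, quartiles of the whole Foxn3 list), for Foxn3-only regions and regions shared with Rfx3 or with both factors; error bars are 95% Wilson intervals, and n is the number of Foxn3-only windows. The Foxn3-only share goes from 21.0% to 75%, and the others stay at or under 20.5%. The 75% includes the windows of Rheb and Lamtor4, whose sites lie outside the Foxn3 peak.

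The E-boxes lay close to the start and mostly inside the Foxn3 peak. The 57 windows held 91 CACGTG sites, 27 windows held 2 or more, and the most in a window was 4. Their median position relative to the start was −58 bp (quartiles −107 and −17.5), against −70 bp for all CACGTG sites in promoter windows (−144 and −18). Of the 91 sites, 85 (93.4%) were inside the Foxn3 peak, and the median distance to its midpoint was 57 bp. Each window was picked for its overlap with the peak, so a high share inside can follow from the search. The share of window bases inside the peak was not computed, and no link between E-box and peak is drawn from the 93.4%. In 53 windows at least 1 site was inside the peak. The other windows, those of Rheb, Lamtor4, Ubap2 and C030016D13Rik, had their sites outside it. The peaks of Rheb (−676 to −223 bp from the start) and Lamtor4 (39 to 326 bp) lay mostly outside the searched window. Whether an E-box lies under the unsearched part of these peaks was not examined. Counting only bases inside the peak left the share at 34.0%. The E-box and the CCAAT box occurred together in 27 windows, and 27 windows held neither.

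**Figure D5:**
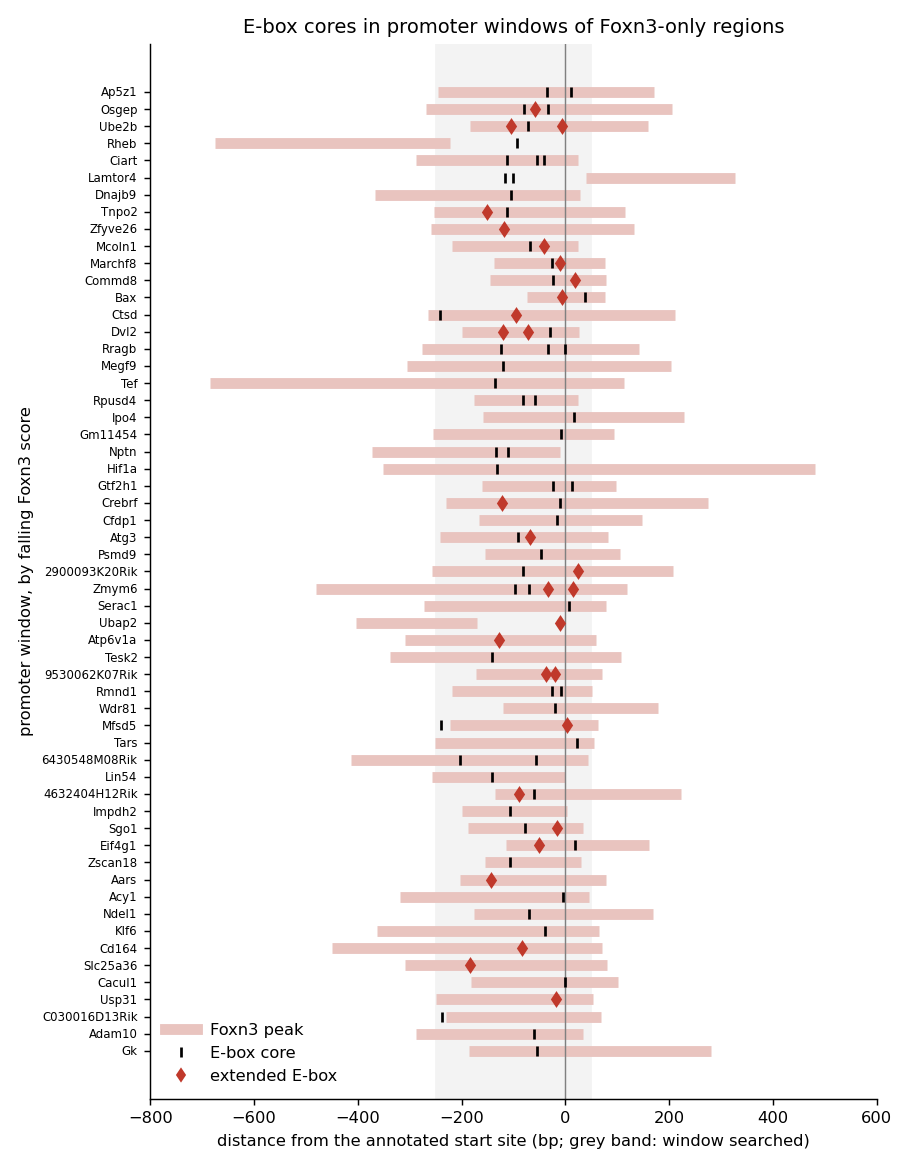
Positions of CACGTG (black ticks) and of the extended TCACGTGA (red diamonds) relative to the annotated start site (x axis, bp) in the 57 windows with an E-box under Foxn3-only regions, ordered by falling Foxn3 score (y axis, gene symbols), with the Foxn3 peak as a pink bar and the searched window in grey. Of 91 sites, 85 lie inside the peak, and the sites found for Rheb and Lamtor4 lie outside their peaks, which were mostly not searched.

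The genes with an E-box window under a Foxn3-only region have varied known roles, and those described here were picked after their values were seen, so no theme is drawn from them. Mcoln1 had a score of 55.1, Ctsd 45.8 and Atp6v1a 25.2. Zfyve26, which works with the AP-5 adaptor, had 63.5, and Marchf8, a membrane ubiquitin ligase, had 50.5. Rragb is a Rag GTPase that recruits mTORC1, and Atg3 (29.0) conjugates lipid to autophagy proteins. The same windows included those of the apoptosis gene Bax (49.5), the Wnt signal transducer Dvl2 (43.0), the endoplasmic reticulum chaperone Dnajb9 (64.5) and the nuclear import factor Tnpo2 (64.5). Genes of the translation machinery (Tars, Aars and Eif4g1) and the centromeric cohesion protein Sgo1 were also there. The 25 windows with the extended form included those of Ube2b, Osgep, Bax, Dvl2, Eif4g1 and Cd164. The 6 of the 20 highest-scoring windows that lacked an E-box were those of Prdm10 (109), LOC108169175 inside Atf7ip (72.9), 1700016J18Rik beside Armc2 (62.6), 1700012B09Rik (52.3), Adgb (47.7) and Top2b (47.7).

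By gene, 225 of 21887 protein-coding genes (1.03%) had a Foxn3-only region within 1 kb of an end, and 1928 (8.81%) had any Foxn3 region there, so 11.7% of the Foxn3-bound genes had a Foxn3-only one. At 47 members, 2 or more genes were in reach, and the region cannot be given to 1 of them. Of the 225 genes, 208 had no Foxn4 or Rfx3 peak at either end. The other 17 did, among them Ccdc40, Dnah9, Atg9a, Gabarap and Ddx5.

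Of 133 matched genes of the primary cilium list, 66 (49.6%) had any Foxn3 region at an end and 5 (3.76%) a Foxn3-only one, or 7.58% of the Foxn3-bound genes of the list beside 11.7% over all genes. These were Ptch1, Gli1, Poc5, Fbf1 and Ttc30a1. Poc5, a centriole protein, had a score of 29.9 (chr13:96388011-96388419). Fbf1, a protein of the distal appendages that dock the centriole, had 26.2 (chr11:116168178-116168400), and Ttc30a1, a subunit of the intraflagellar transport complex, had 23.4 (chr2:75981686-75981868). Of 99 genes of the motile cilium list, 52 (52.5%) had any Foxn3 region and 4 (4.04%) a Foxn3-only one, or 7.69% of the Foxn3-bound genes of the list. Whether these shares differ from the overall one was not tested. The 4 were Nme5 (71.0), Armc2 (62.6, chr10:42018093-42018271), Dnah9, an outer dynein arm heavy chain (15.9, chr11:66167678-66168295), and Ccdc40, an axonemal assembly factor (11.2). Dnah9 and Ccdc40 had an Rfx3 peak 96 and 47 bp from the region. The centrosome list had 0 of 64 genes with a Foxn3-only region and 19 with any.

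Of 42 Hedgehog pathway genes, 11 had any Foxn3 region and 3 (7.14%) a Foxn3-only one, against 1.03% of all protein-coding genes. They were 27.3% of the Foxn3-bound genes of the list, beside 11.7% over all genes. Whether these shares differ was not tested, and the list was chosen with earlier results of these data known. The region counted for the ligand Dhh lay inside the neighbouring Rhebl1, with its midpoint 189 bp from an end of Dhh but 17114 bp from the annotated Dhh start (score 18.7, chr15:98881220-98881632). The receptor Ptch1, itself a transcriptional target of the pathway, had 49.5 at its gene end (chr13:63573364-63573603) and 15.9 in a further region inside the gene (chr13:63568904-63569429). The midpoint of the gene-end region lay 23 bp from that end but 7748 bp from the annotated Ptch1 start. Gli1, the transcription factor that Hedgehog signalling induces, had 38.3 (chr10:127340283-127341064), 906 bp from the gene's end. Mga, a partner of Max, was the other gene with 2 Foxn3-only regions, with 19.6 (chr2:119873184-119873560) and 40.2 (chr2:119898282-119898633). Ptch1 and Gli1 are in both the Hedgehog and the primary cilium list.

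For the other lists, the shares over all protein-coding genes to set beside the counts are 1.03% with a Foxn3-only region and 8.81% with any Foxn3 region. Whether any list differs from them was not tested. Cell cycle genes numbered 3 of 92 (19 with any Foxn3 region). Lin54, the DNA-binding subunit of the DREAM complex, had 22.4 and an E-box in its window (chr5:100500639-100500896). Anapc5, a subunit of the anaphase-promoting complex, had 19.6 (chr5:122821243-122821497), and Pcna had 14.0 (chr2:132253139-132253440). The DNA damage checkpoint list had 2 of 66 genes (11 with any), among them Rad9a with 69.2. The Notch pathway list had 1 of 47 (6 with any), Adam10, a protease that cleaves Notch, with 11.2 and an E-box (chr9:70678695-70679015).

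Among 113 chromatin and transcription genes (14 with any), Chd1, a chromatin remodeller, had 37.4 (chr17:15704404-15704680), and Ezh2, the methyltransferase of Polycomb complex PRC2, had 15.9 (chr6:47594946-47595345). The 121 retinal transcription factors (6 with any) included 2, Klf6 with 16.8 (chr13:5861126-5861554) and Klf9 with 13.1 (chr19:23140692-23141139). The mitochondrion list had 2 of 144 (19 with any), Atp5j, a subunit of ATP synthase (14.0, chr16:84834799-84835141, its window that of the neighbouring Gabpa), and Mrps18b, a mitochondrial ribosomal protein (13.1, chr17:35916677-35917029). Ribosomal protein genes numbered 2 of 82 (12 with any), both from 1 region. The neuron projection and synapse list had 1 of 121 (3 with any), Stmn1, a regulator of microtubules, with 22.4 (chr4:134468257-134468461). The photoreceptor list had 0 of 62 (1 with any), and the forkhead and Rfx families had 0 of 54 (4 with any). Within 5 kb of an end there were 2, Foxk1 and Rfx5. The Rfx5 region, with a score of 33.6, lay inside the gene and overlapped the promoter window of an internal annotated start, with its midpoint at −187 bp (chr3:94953669-94954174). Rfx5 is a regulator of MHC class II genes. Across the 14 lists, 25 of 1200 matched genes had a Foxn3-only region, against 225 of all 21887 protein-coding genes (1.03%). The share with any Foxn3 region ran from 1.61% in the photoreceptor list to 52.5% in the motile cilium list, against 8.81% over all genes. These differences were not tested.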

How the data were processed

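The data were CUT&RUN peak lists, 1 for each of Foxn3, Foxn4 and Rfx3, from 16 libraries (8 of them controls). The deposited score of each peak is the authors' own value, in a unit not given in the sources used here. Per the submitters' processing notes, cutadapt, Bowtie2, UMI-tools, bedtools and SEACR were used with build mm10. Their versions and roles, the libraries behind each list and the read depth per library are not given in the sources used here. Gene positions and promoter windows came from RefSeq tables of GRCm38.p6. Peaks overlapping by at least 1 bp were merged with python 3.11.15, pandas 2.3.3 and numpy 2.4.6, and a gene end was the first or last annotated base of a protein-coding gene. Shares carry 95% Wilson intervals. Counts were compared by Fisher's exact test (scipy 1.17.1), two-sided, with Benjamini-Hochberg adjustment (statsmodels 0.14.6) and odds ratio intervals from the normal approximation of the logarithm. Merging and tests were tested on simulated data. Each region was given the 1 promoter window with the longest overlap, and windows of neighbouring starts can share sequence. No genome was used, so motifs were searched only in promoter windows, and windows on chromosome 18 were not used here. Named were the 10 highest-scoring regions, those at genes of 14 lists, genes with 2 or more regions, the regions nearest the rule on either side, the 3 widest and the factors' own genes. A few genes that this rule names are not reported here. The members and the lists were chosen with earlier results of these data known. Alternatives changed the distance to a gene end, the gap for merging, score and width limits and the gene set.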

Additional observations from a re-analysis of the deposited data

How the results depend on the processing

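No paired analysis was possible because each factor has 1 peak list and no values of single libraries. Of 107 alternative values, 83 kept their direction and side of the threshold, or stayed close to the reported value. With Foxn3 peaks at or above their median score, 70 regions were Foxn3-only. The odds ratios then were, at gene ends, 0.90 against Foxn3 with Foxn4 and 0.729 against all factors, and, between genes, 0.639 and 1.05. For GTTGCC they were 2.32 against Foxn3 with Foxn4 and 0.402 against Foxn3 with Rfx3, and for CCAAT 0.138 against Foxn3 with Foxn4. With Foxn4 and Rfx3 peaks at or above their median scores, 845 regions were Foxn3-only. The gene-end share was 55.1% within 500 bp and 71.6% within 5 kb. The gene-end odds ratio against all factors was 0.905 within 500 bp and 0.978 without receptor families and unnamed genes, and against Foxn3 with Rfx3 it was 0.990 within 5 kb. By alternatives chosen after seeing the data, CACGTG was in 65.0% of windows with Foxn3 peaks at or above the median score and in 20.8% with Foxn4 and Rfx3 peaks at or above theirs. The cause was not tested. Read depth is unknown, so no value has an interval for depth, and a region without a Foxn4 or Rfx3 peak is not shown to lack the factor.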
